A study of Homo sapiens with 8 samples.

Results

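The receptor tyrosine kinases examined here were 57 listed human genes, taken as the rows of the deposited count matrix whose gene name equals a listed symbol. Of the 57, 39 had a row among the 23562 rows of the matrix, each under 1 row only. RNA of OCI-AML5 cells, a line established from human acute myeloid leukemia, was sequenced in 8 libraries. In the sgCEBPD group (4 libraries), cells had been transduced with a lentiCRISPRv2 vector, which carries Cas9 and a guide RNA, with a guide against CEBPD, the gene of the transcription factor C/EBP delta. In the sgControl group (4 libraries), the same vector carried a non-specific guide. Each library held another guide, all libraries came from 1 cell line, and the labels name no separate cultures. The p-values therefore rest on the spread between these libraries alone, in which guide, culture and technical differences cannot be told apart. The labels give no age of the cultures and no other treatment.

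A receptor tyrosine kinase spans the cell membrane, binds a growth factor outside the cell and, once paired with another receptor, adds phosphate to tyrosines inside it. Adaptor proteins then dock there and pass the signal to the RAS and PI3K pathways. In myeloid blood cells the receptors of the class that holds CSF1R, FLT3 and KIT guide growth and maturation, and FLT3 and KIT are known for activating mutations in acute myeloid leukemia. The Eph receptors, the largest family of the group, bind ephrins on neighbouring cells.

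Library totals lay between 10217751 and 11521209 counts, and 3 counts stand for about 0.26 to 0.294 CPM (counts scaled to a common library size, with TMM normalisation). CEBPD transcript lay at 107 to 209 CPM in sgCEBPD libraries and at 202 to 216 CPM in sgControl libraries, so the transcript of the targeted gene did not separate every sgCEBPD library from the controls. Library sgCEBPD 3 differed from the remaining 7 in marker genes of several cell types, and its values are given by themselves for most genes below. This library is included where only a range or mean over all sgCEBPD libraries is given. In it the summed level of monocyte and macrophage markers (14 of 17 in the matrix) was 728 CPM, against 92.9 to 294 CPM in sgCEBPD 1, 2 and 4 and 115 to 208 CPM in sgControl libraries. LYZ of that list did not follow, at 80.9 CPM against 37.0 to 189 CPM in the other libraries, and gave 189 of the 294 CPM in sgCEBPD 2. All other markers of the list with a row were highest in sgCEBPD 3. Its mast cell and basophil markers (7 of 10) summed to 632 CPM, against 55.3 to 91.0 CPM in sgCEBPD 1, 2 and 4 and 82.5 to 90.3 CPM in sgControl libraries. Its lymphoid markers (6 of 9) summed to 68.6 CPM, of which the T-cell gene CD3D gave 52.7 CPM, against 5.96 to 8.23 CPM in sgCEBPD 1, 2 and 4 and 9.30 to 10.5 CPM in sgControl libraries. Of the genes listed for myeloid lines, CD33 and SPI1 were present in every library. ELANE and ANPEP were under 1.5 CPM in every library and at 0 in several, sgCEBPD 3 included. The list (11 of 11 in the matrix) summed to 2083 CPM in sgCEBPD 3. Its sum was 1249 to 1335 CPM in sgCEBPD 1, 2 and 4 and 1226 to 1283 CPM in sgControl libraries. Of the 2083 CPM, PTPRC, a gene of leukocytes in general, gave 943 CPM, SPI1 433 CPM and CSF3R 418 CPM. CD34 (7.86 CPM) and MPO (11.8 CPM) were lower in sgCEBPD 3 than in any other library. Erythroid and megakaryocyte markers (7 of 15) summed to 75.5 CPM in sgCEBPD 3, of which ITGA2B gave 57.4 CPM. They summed to 37.7 to 48.6 CPM in sgCEBPD 1, 2 and 4 and 28.9 to 51.5 CPM in sgControl libraries. GATA1 of that list was at most 0.284 CPM in any library. The epithelial, fibroblast and endothelial list (4 of 13 in the matrix) summed to no more than 1.99 CPM in any library. In a bulk library, fewer cells of a type and less RNA per cell cannot be told apart.

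EPHB6, LTK and ROS1 passed the test in at least 1 comparison, and the 250 bases before their RefSeq transcription start (GRCh38.p14) are shown because the targeted factor binds DNA. C/EBP proteins bind palindromes close to TTGCGCAA, of which TTGCNNAA is a loose form that reads the same on both strands. CCAAT, the element the family is named after and a known site of the factor NF-Y, was searched on both strands. Capitals mark matches to TTGCNNAA and to CCAAT or its reverse complement ATTGG, and no match of one overlaps a match of the other.
ROS1, chr6:117425943-117426192, minus strand: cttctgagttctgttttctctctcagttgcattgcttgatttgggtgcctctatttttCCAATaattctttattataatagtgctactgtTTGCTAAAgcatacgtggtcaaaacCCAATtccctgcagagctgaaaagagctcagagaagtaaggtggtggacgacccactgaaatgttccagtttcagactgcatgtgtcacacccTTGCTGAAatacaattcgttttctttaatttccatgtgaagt
LTK, chr15:41513888-41514077, minus strand: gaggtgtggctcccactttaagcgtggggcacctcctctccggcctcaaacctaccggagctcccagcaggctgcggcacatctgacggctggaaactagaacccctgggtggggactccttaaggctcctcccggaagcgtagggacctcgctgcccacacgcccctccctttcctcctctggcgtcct
EPHB6, chr7:142862506-142862755, plus strand: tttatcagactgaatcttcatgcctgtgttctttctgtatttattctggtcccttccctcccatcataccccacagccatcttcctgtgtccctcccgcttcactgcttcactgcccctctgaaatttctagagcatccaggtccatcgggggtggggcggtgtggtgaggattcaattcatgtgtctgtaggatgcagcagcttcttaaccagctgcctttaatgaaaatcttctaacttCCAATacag
The LTK stretch is 190 bases long, since the 60 bases nearest the start lie in an exon of a longer GENCODE release 29 transcript. The EPHB6 stretch lies within an intron of 5 longer GENCODE transcripts, so it is the start of the shorter transcripts only. The ROS1 window held 2 matches to TTGCNNAA and 2 to CCAAT, the EPHB6 window 1 match to CCAAT, and the LTK window neither. TTGCNNAA was found in 4.73% of all 35116 promoter windows of 250 bases, in 4 of the 51 members with a window, and in 2 of 25 tested members, ROS1 and AXL. CCAAT was found in 32.0% of all windows and in 20 of the 51. The full TTGCGCAA was in 0.131% of all windows and in 0 of the 51. A match is a description of these letters and shows no binding.

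Per kilobase of annotated exon, which allows a rough comparison of levels between genes, the order of the members was led by CSF1R and FLT3. The length merges the exons of all annotated transcripts, from 4159 bases in FLT3 to 10945 in TYRO3 and 12516 in EPHB2. The order therefore depends on the annotation, and the lengths of the transcripts expressed here were not measured. CSF1R, the receptor of macrophage colony-stimulating factor, averaged 89.3 CPM per kilobase over the 8 libraries and lay between 75.2 and 104. FLT3, the receptor of FLT3 ligand on early progenitors, averaged 41.9 CPM per kilobase and lay between 29.03 and 67.7, so that these receptors did not overlap in any library. INSR (12.04), IGF1R (11.2), EPHB2 (11.2), TYRO3 (10.3) and EPHB4 (8.04 CPM per kilobase) followed, and neighbours in this order overlapped in range. FGFR1, RYK, KIT, LMTK2, AATK, LTK, EPHA1, FLT4, EPHB3, FGFR4 and LMTK3 averaged between 1.08 and 6.08 CPM per kilobase over the 8 libraries. Single libraries reached further, from 0.578 to 21.4 CPM per kilobase in FGFR1 and from 0.0405 to 7.39 in EPHB3.

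**Figure D1:**
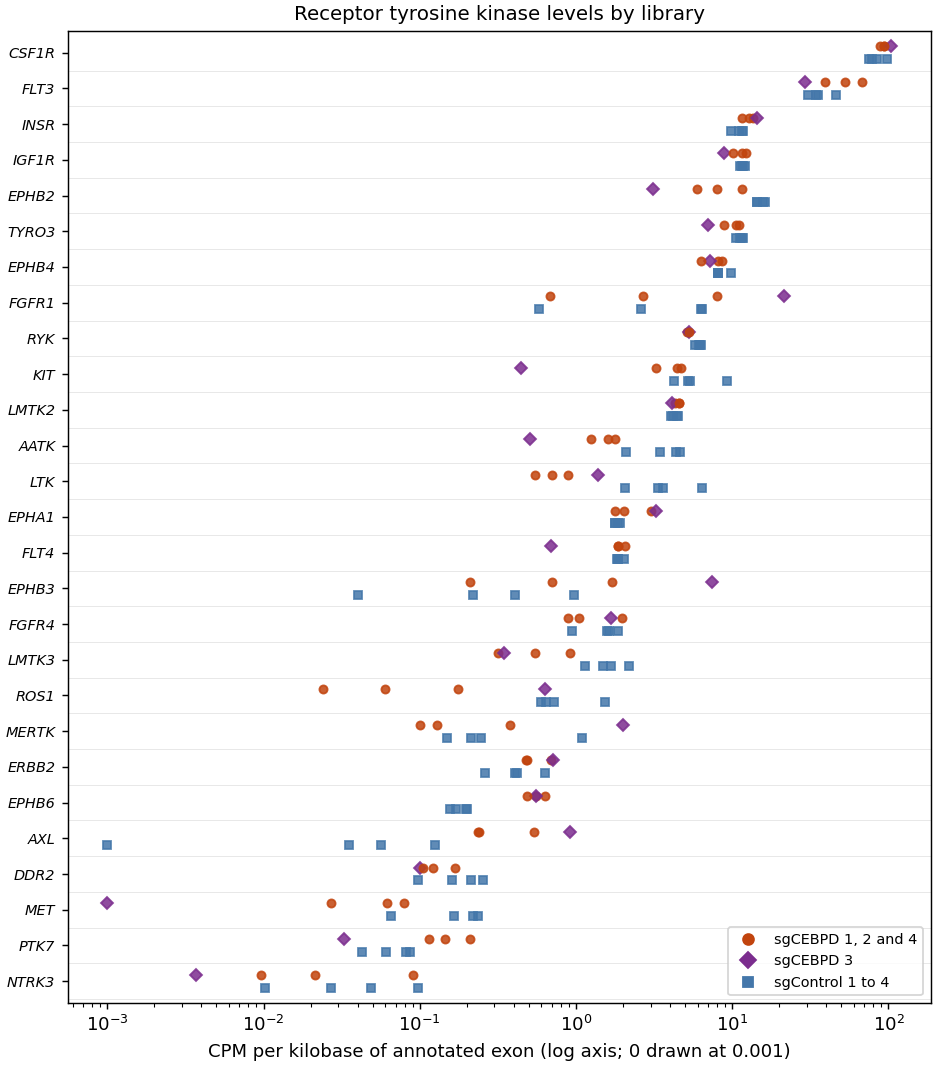
Level of the 27 receptor tyrosine kinases tested in either comparison, in CPM per kilobase of annotated exon (log axis, 0 drawn at 0.001), with 1 point per library and sgCEBPD 3 as a diamond. CSF1R and FLT3 lie above every other member on average, and the sgCEBPD 3 point lies far from the other libraries for FGFR1, EPHB3 and KIT.

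Genes with too few counts were left out of the test by edgeR's filterByExpr, which kept 24 of the 39 members with all 8 libraries and 27 without sgCEBPD 3, where MET, PTK7 and NTRK3 were added. The remaining 12 with a row were RET, ROR2, ERBB4, EPHA2, TIE1, PDGFRB, INSRR, FGFR3, EPHA8, MST1R, PDGFRA and EPHA5. RET, the receptor of the GDNF family, lay at 0.432 to 2.20 CPM, and PDGFRB, INSRR, FGFR3, EPHA8, MST1R, PDGFRA and EPHA5 stayed under 0.4 CPM in every library, where 3 counts or fewer often decide a value. EGFR, ERBB3, FLT1, KDR, FGFR2, NTRK2, ROR1, MUSK, TEK, EPHA3, EPHA4, EPHA6, EPHA7, EPHA10, EPHB1, DDR1, ALK and STYK1 (18 genes) had no row in the matrix, whose lowest row total was 4 counts, and were not analysed here.

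Of the 24 members tested with all 8 libraries, 1 was higher in the sgCEBPD group and none was lower at an adjusted p under 0.05 in edgeR's quasi-likelihood test, beside 0.0795% of all 13838 genes tested (0.00723% higher and 0.0723% lower). Without sgCEBPD 3, 1 of 27 was higher and 2 were lower, beside 2.01% of all 14047 genes tested (0.705% higher and 1.31% lower). That comparison was chosen with earlier results of these data known, so its p-values are not those of a test planned beforehand. All genes called numbered 11 with sgCEBPD 3 and 283 without it. The member that was higher in both comparisons was EPHB6, and the members that were lower without sgCEBPD 3 were ROS1 and LTK. The median log2 fold change (sgCEBPD over sgControl) of the tested members was -0.12 with 8 libraries and -0.15 with 7, beside 0.00029 and 0.0011 for all genes tested. At an unadjusted p under 0.05 stood 10 of 24 and 11 of 27 members, beside 11.4% and 15.5% of all genes tested.

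**Figure D2:**
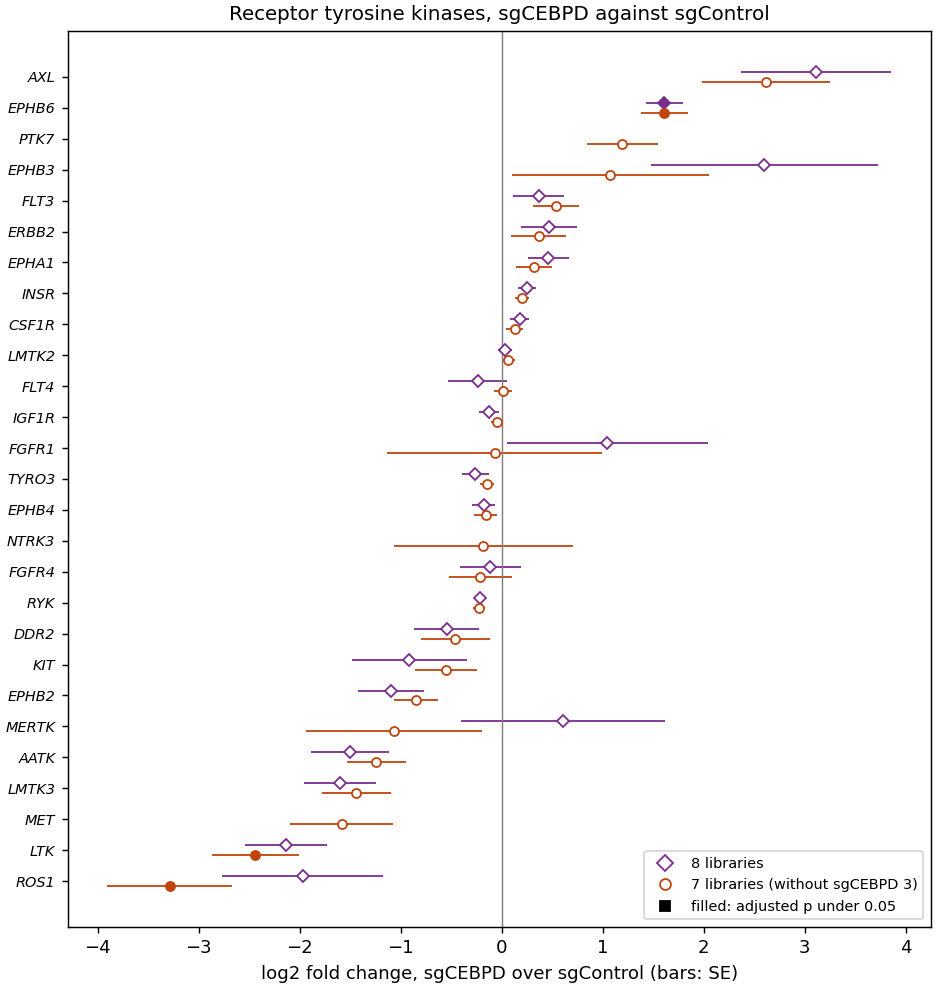
Log2 fold change of each tested member, sgCEBPD over sgControl, with the SE as bars, from the fit on 8 libraries (diamonds) and on the 7 without sgCEBPD 3 (circles); filled symbols have an adjusted p under 0.05. EPHB6 is filled in both fits at 1.61, and LTK (-2.44) and ROS1 (-3.29) only in the fit on 7 libraries.

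EPHB6 rose in sgCEBPD libraries. It encodes an Eph receptor whose kinase domain is inactive and which acts through other Eph receptors, and it lies on chromosome 7 from 142855061 to 142871094 (GRCh38, plus strand). It stood at 3.37, 2.93, 2.95 and 2.59 CPM in sgCEBPD 1 to 4, against 1.05, 1.07, 0.908 and 0.826 CPM in sgControl 1 to 4. All sgCEBPD libraries, sgCEBPD 3 included, lay above all controls, and both groups were narrow. The means were 2.96 ± 0.318 CPM in sgCEBPD and 0.962 ± 0.115 CPM in sgControl (SD, n = 4 each), and the raw counts were 30 to 36 against 9 to 12. The log2 fold change was 1.61 (SE 0.19, edgeR adjusted p = 0.0294), and 1.61 without sgCEBPD 3 (SE 0.23, edgeR adjusted p = 0.0110). With 8 libraries the call was lost when any 1 of the other 7 was left out, with adjusted p in edgeR of 0.118, 0.115 and 0.0550 without sgCEBPD 1, 2 and 4, and of 0.179, 0.0952, 0.118 and 0.128 without sgControl 1, 2, 3 and 4. It was also lost with 8 libraries when guide numbers entered as a replicate block (adjusted p = 0.221 in edgeR). Without sgCEBPD 3, EPHB6 passed in all 14 other settings, with adjusted p of at most 0.0403.

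LTK, the leukocyte tyrosine kinase, a relative of ALK in the insulin receptor superfamily, was lower in every sgCEBPD library. It lies on chromosome 15 from 41503638 to 41513887 (GRCh38, minus strand). It stood at 3.09, 2.46, 4.81 and 1.90 CPM in sgCEBPD 1 to 4, against 22.5, 12.6, 11.6 and 7.16 CPM in sgControl 1 to 4. The groups did not overlap, and the controls spread 3.14-fold, with sgControl 1 the highest. The log2 fold change was -2.44 (SE 0.43, edgeR adjusted p = 0.0404) without sgCEBPD 3 and -2.14 (SE 0.40, edgeR adjusted p = 0.144) with it. The call without sgCEBPD 3 was lost on leaving out sgCEBPD 1, 2 or 4 (adjusted p in edgeR 0.105, 0.190 and 0.111) or sgControl 2 or 3 (0.0688 and 0.0853), and in limma-voom (0.129) and with no filter (0.0955), while DESeq2 called LTK with 8 libraries as well.

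ROS1, a receptor best known from gene fusions in cancer, was lower in sgCEBPD 1, 2 and 4 and at the control level in sgCEBPD 3. It lies on chromosome 6 from 117288300 to 117425855 (GRCh38, minus strand) and overlaps another protein-coding gene model (AL132671.2) on the same strand, whose reads cannot be told apart from its own. It stood at 0.468, 0.189, 5.01 and 1.38 CPM in sgCEBPD 1 to 4, against 5.68, 5.04, 4.72 and 12.1 CPM in sgControl 1 to 4. Raw counts were 5, 2, 51 and 16 against 65, 52, 52 and 132. Without sgCEBPD 3 the means were 0.680 ± 0.624 CPM in sgCEBPD (SD, n = 3) and 6.89 ± 3.51 CPM in sgControl (SD, n = 4), and the log2 fold change was -3.29 (SE 0.62, edgeR adjusted p = 0.0471). With all 8 libraries it was -1.97 (SE 0.79, edgeR adjusted p = 0.421). The call was lost without sgCEBPD 1 or 2 (adjusted p in edgeR 0.152 and 0.123), without sgControl 1, 2 or 3 (0.125, 0.0652 and 0.0787), in limma-voom (0.0785) and with no filter (0.104).

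**Figure D3:**
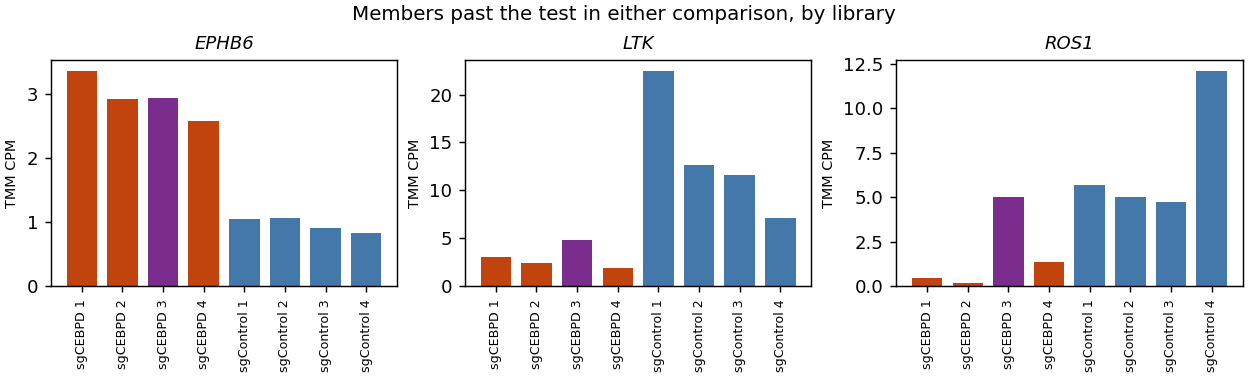
TMM-normalised CPM of EPHB6, LTK and ROS1 in each library (bars; orange sgCEBPD 1, 2 and 4, purple sgCEBPD 3, blue sgControl). EPHB6 is higher in all 4 sgCEBPD libraries, LTK is lower in all 4, and ROS1 in sgCEBPD 3 (5.01 CPM) is within the control range.

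Among the other Eph receptors, EPHB2 was separated between groups without passing edgeR's test. EPHB2, a receptor of B-type ephrins, stood at 99.3, 74.5, 38.8 and 144 CPM in sgCEBPD 1 to 4, against 180.0, 204, 181 and 197 CPM in sgControl 1 to 4. No sgCEBPD library reached the lowest control, and sgCEBPD 4 was the closest. The log2 fold change was -1.10 (SE 0.33, edgeR adjusted p = 0.317) with 8 libraries and -0.85 (SE 0.22, edgeR adjusted p = 0.147) with 7. Leaving out sgCEBPD 4 from the 7 gave -1.13 and an adjusted p of 0.00646 in edgeR. Leaving out the library nearest the controls widens the gap by construction, and leaving out any other there gave no call. DESeq2 called EPHB2 in both comparisons (adjusted p = 0.0417 and 0.0122). EPHB4, known for its part in vessel and blood development, stood at 55.5, 51.8, 46.1 and 40.8 CPM in sgCEBPD libraries, against 63.5, 52.0, 52.1 and 52.2 CPM in sgControl libraries. EPHB4 groups overlapped (adjusted p = 0.558 in edgeR), and the gene overlaps SLC12A9 on the other strand. EPHA1 had 9.64, 14.3, 15.3 and 8.38 CPM in sgCEBPD libraries, against 9.01, 8.82, 8.36 and 8.35 CPM in sgControl libraries (adjusted p = 0.438 in edgeR), with sgCEBPD 1, 2 and 3 above every control and sgCEBPD 4 within their range. EPHA1 overlaps ZYX and EPHA1-AS1 on the other strand, and the part of their reads in its counts was not tested.

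The other members whose groups did not overlap were AATK, LMTK3, RYK and AXL. AATK, a brain-enriched kinase of the lemur tail kinase family linked to apoptosis and differentiation of myeloid cells in the mouse, stood at 9.92, 7.76, 3.14 and 11.1 CPM in sgCEBPD 1 to 4, against 27.2, 13.1, 28.9 and 21.5 CPM in sgControl 1 to 4. Its log2 fold change was -1.50 (SE 0.38, edgeR adjusted p = 0.265) with 8 libraries and -1.24 (SE 0.29, edgeR adjusted p = 0.0957) with 7. AATK overlaps BAIAP2 on the other strand, and the strand setting of the counting is not given in the sources used here. Without sgControl 2, the lowest control, AATK passed in the comparison of 7 libraries (log2 fold change -1.43, adjusted p = 0.00322 in edgeR). Leaving out the control nearest the sgCEBPD group widens the gap by construction, and leaving out any other library there gave no call. With the replicate block AATK also passed there (log2 fold change -1.07, adjusted p = 0.0136 in edgeR).

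LMTK3, of the same family as AATK, stood at 3.09, 1.80, 1.96 and 5.18 CPM in sgCEBPD 1 to 4, against 8.48, 12.3, 9.45 and 6.52 CPM in sgControl 1 to 4 (log2 fold change -1.60, SE 0.36, edgeR adjusted p = 0.208 with 8 libraries, and -1.44 with adjusted p = 0.0822 with 7). Leaving out sgCEBPD 4, the highest of its group, gave -1.90 and an adjusted p of 0.0198 in the comparison of 7 libraries (edgeR). That library was the nearest to the controls, so the gap widened by construction. Leaving out any other library there gave no call. The third gene of the family, LMTK2, overlapped between groups: 41.7, 39.1, 37.4 and 41.8 CPM in sgCEBPD libraries against 40.9, 38.0, 40.2 and 37.2 CPM in sgControl libraries, with a log2 fold change of 0.034 (SE 0.071). RYK, a WNT co-receptor with an inactive kinase domain, had the narrowest groups of the gap-separated members, at 41.5, 41.8, 42.5 and 42.7 CPM in sgCEBPD 1 to 4, against 49.7, 50.6, 46.1 and 49.7 CPM in sgControl 1 to 4. Its log2 fold change was -0.22 (SE 0.061, edgeR adjusted p = 0.284 with 8 libraries).

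The TAM receptors TYRO3, AXL and MERTK bind GAS6 and protein S and act in the clearance of dying cells. AXL stood at 1.22, 1.23, 4.72 and 2.76 CPM in sgCEBPD 1 to 4, against 0, 0.291, 0.182 and 0.643 CPM in sgControl 1 to 4, where 0 counts in sgControl 1 allow up to 0.266 CPM. Every sgCEBPD library lay above every control, from 13 to 48 raw counts against 0 to 7, and AXL passed the count filter only through its sgCEBPD libraries. The log2 fold change of AXL was 3.11 (SE 0.74, edgeR adjusted p = 0.243) with 8 libraries and 2.62 (SE 0.63, edgeR adjusted p = 0.0776) with 7, and DESeq2 called it in both (adjusted p = 0.0116 and 0.0274). TYRO3 had 122, 116, 76.7 and 97.2 CPM in sgCEBPD libraries against 128, 116, 127 and 123 CPM in sgControl libraries, with overlapping groups (adjusted p = 0.484 in edgeR). MERTK was under 2 CPM in 6 libraries and stood at 9.43 CPM in sgCEBPD 3 and 5.14 CPM in sgControl 4, and its log2 fold change was 0.61 with 8 libraries and -1.07 without sgCEBPD 3, neither past the test.

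In all, 7 of the 24 tested members (29.2%) had no overlap between the groups with 8 libraries, 2 higher and 5 lower, beside 9.59% of all genes tested (4.96% higher and 4.62% lower). Without sgCEBPD 3 these were 9 of 27 (33.3%), 3 higher and 6 lower, beside 14.4% of all genes tested (6.89% higher and 7.5% lower). The members that joined were ROS1 (lower) and PTK7 (higher). The filter keeps a gene with enough counts in as many libraries as the smallest group holds. AXL, EPHB6 and PTK7 met it only through sgCEBPD libraries, where they were higher. Without sgCEBPD 3, ROS1 met it only through sgControl libraries. The place of these members in the counts above is therefore partly set by the filter. PTK7, an inactive kinase of planar cell polarity and WNT signalling, had 1.31, 1.04 and 1.90 CPM in sgCEBPD 1, 2 and 4, against 0.787, 0.388, 0.545 and 0.734 CPM in sgControl 1 to 4, and 0.295 CPM in sgCEBPD 3 (log2 fold change 1.19, SE 0.35, edgeR adjusted p = 0.130 with 7 libraries). DESeq2 called 6 members with 8 libraries (EPHB6, LTK, EPHB2, LMTK3, AXL and AATK) and 7 without sgCEBPD 3, with ROS1 added, while limma-voom called EPHB6 alone in both.

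**Figure D4:**
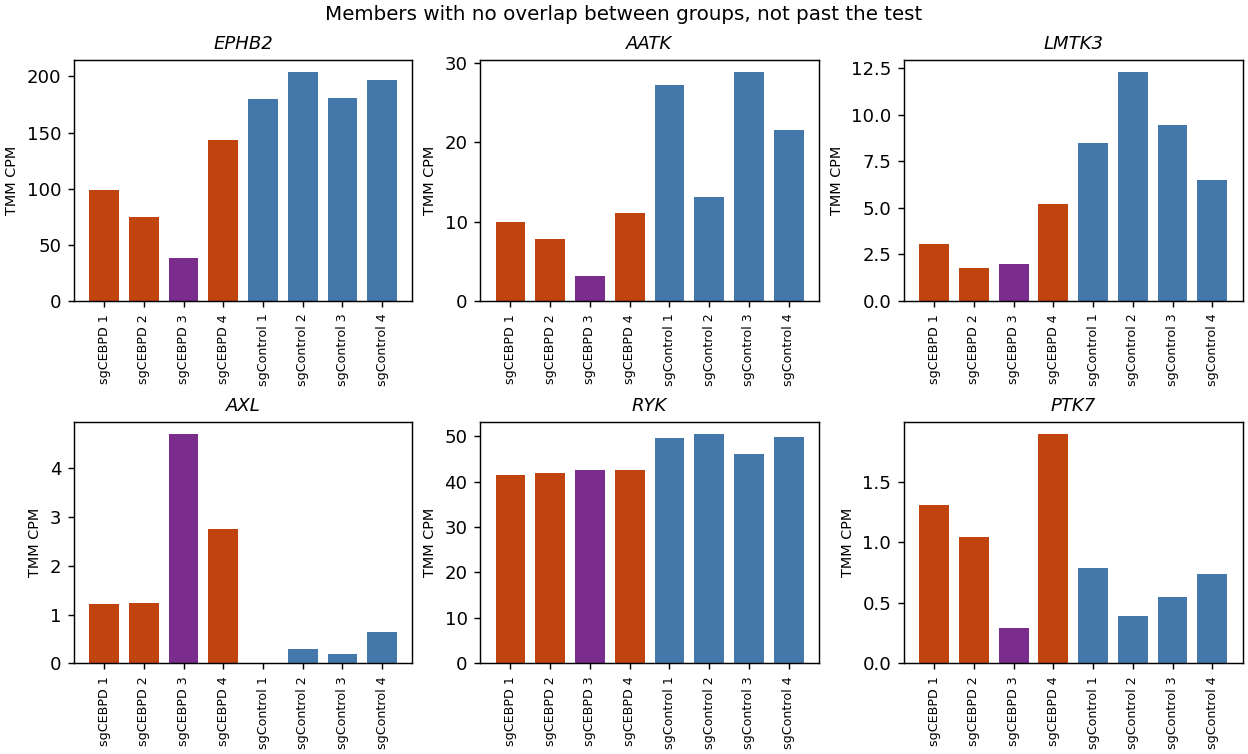
TMM-normalised CPM in each library of the members that showed no overlap between the groups with 8 libraries (EPHB2, AATK, LMTK3, AXL, RYK) or 7 libraries (PTK7) and did not pass edgeR's test. EPHB2 lies at 38.8 to 144 CPM in sgCEBPD libraries, below the lowest control at 180.0 CPM, and PTK7 in sgCEBPD 3 lies below the controls.

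CSF1R and FLT3, receptors of myeloid growth factors, led the members in level and did not pass the test. CSF1R stood at 485, 451, 538 and 480.2 CPM in sgCEBPD 1 to 4, against 402, 503, 434 and 387 CPM in sgControl 1 to 4 (log2 fold change 0.18, SE 0.094, edgeR adjusted p = 0.492). sgCEBPD 3 was the highest library, 1.07 times the next, and the groups overlapped through sgControl 2. FLT3 stood at 219.9, 282, 121 and 163 CPM in sgCEBPD 1 to 4, against 142, 126, 193 and 148 CPM in sgControl 1 to 4 (log2 fold change 0.36, SE 0.25, edgeR adjusted p = 0.578, and 0.54 with adjusted p = 0.346 without sgCEBPD 3). sgCEBPD 1 and 2 were above every control in FLT3, and sgCEBPD 3 was the lowest of all.

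KIT, the stem cell factor receptor of progenitors and mast cells, was far lower in sgCEBPD 3 than in any other library. It stood at 18.1, 24.5, 2.46 and 26.1 CPM in sgCEBPD 1 to 4, against 23.6, 29.1, 29.8 and 51.9 CPM in sgControl 1 to 4. In sgCEBPD 3 KIT was at 13.6% of the lowest other library, while in the remaining sgCEBPD libraries it overlapped the controls (log2 fold change -0.55, SE 0.30, edgeR adjusted p = 0.465 without sgCEBPD 3). CD34, a progenitor marker, stood at 67.5, 59.1, 7.86 and 29.9 CPM in sgCEBPD 1 to 4, against 32.0, 65.4, 104 and 13.4 CPM in sgControl 1 to 4, so that sgCEBPD 3 was the lowest library and sgControl 4 the next. The mast cell tryptase genes TPSAB1 and TPSB2 stood at 288 and 207 CPM in sgCEBPD 3, against at most 2.52 and 3.56 CPM in any other library. GATA2 of the mast cell and basophil list stood at 132 CPM there, against 50.3 to 90.2 CPM in the others. CPA3, MS4A2 and CMA1 of that list had no row, and FCER1A, HDC, CLC and HPGDS stayed under 2 CPM. The part of these cell-type genes in the KIT level was not tested.

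Neither insulin receptor family member in the next sentences passed the test. INSR stood at 134, 142, 151 and 121 CPM in sgCEBPD 1 to 4, against 119.8, 115, 103 and 122 CPM in sgControl 1 to 4 (log2 fold change 0.25, SE 0.087, edgeR adjusted p = 0.369). IGF1R, the receptor of insulin-like growth factors, stood at 169.7, 161, 123 and 141 CPM in sgCEBPD libraries, against 162, 157, 169 and 162 CPM in sgControl libraries (log2 fold change -0.13, SE 0.10, edgeR adjusted p = 0.617). Both overlapped, with sgCEBPD 3 the highest library for INSR and the lowest for IGF1R. Among ERBB receptors, ERBB2 had means of 6.11 ± 1.30 CPM in sgCEBPD and 4.42 ± 1.56 CPM in sgControl (SD, n = 4 each; adjusted p = 0.533 in edgeR), with overlapping groups. ERBB2 stood at 7.37 CPM in sgCEBPD 3, its highest library.

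Of the other tested members, DDR2, a collagen receptor, had means of 1.33 ± 0.329 CPM in sgCEBPD and 1.95 ± 0.722 CPM in sgControl (adjusted p = 0.533 in edgeR). FGFR4 had means of 6.71 ± 2.44 and 7.24 ± 1.87 CPM in sgCEBPD and sgControl (adjusted p = 0.883 in edgeR). In sgCEBPD 3, DDR2 stood at 1.08 CPM and FGFR4 at 8.06 CPM. MET, the receptor of hepatocyte growth factor, was tested without sgCEBPD 3 only, at 0.561, 0.189 and 0.432 CPM in sgCEBPD 1, 2 and 4, against 1.66, 1.16, 1.54 and 0.459 CPM in sgControl libraries (log2 fold change -1.59, SE 0.51, edgeR adjusted p = 0.166). MET had 0 counts in sgCEBPD 3, which allows up to 0.280 CPM. NTRK3, a neurotrophin receptor, spread from 0.259 to 2.43 CPM over sgCEBPD 1, 2 and 4 and from 0.275 to 2.62 CPM over sgControl libraries (adjusted p = 0.953 in edgeR with 7 libraries). NTRK3 had 0.0982 CPM in sgCEBPD 3, from 1 count. None of these separated the groups.

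FGFR1 varied more between libraries than the groups differed. FGFR1, a receptor of fibroblast growth factors on chromosome 8, stood at 37.4, 110.4, 296 and 9.50 CPM in sgCEBPD 1 to 4, against 35.9, 88.0, 7.99 and 87.9 CPM in sgControl 1 to 4. The controls alone spanned 11.01-fold, and of the 9550 tested genes with a mean of at least 10 CPM only 20 (0.209%) spanned as much or more among controls. The log2 fold change was 1.04 (SE 1.00) with 8 libraries and -0.071 (SE 1.07) without sgCEBPD 3, so the sign rests on that library. LETM2 and non-coding gene models overlap FGFR1, and reads shared with them cannot be told apart. EPHB3, a B-type Eph receptor, spread likewise, at 3.18, 7.76, 33.5 and 0.950 CPM in sgCEBPD 1 to 4, against 4.37, 1.84, 0.999 and 0.184 CPM in sgControl 1 to 4. The EPHB3 controls spanned 23.8-fold, from 2 to 50 counts, and its log2 fold change of 2.60 (SE 1.12, edgeR adjusted p = 0.436) was 1.08 (adjusted p = 0.688) without sgCEBPD 3.

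In sgCEBPD 3, 8 members lay at least 2-fold outside the range of the other 7 libraries with at least 1 CPM on the higher side. FGFR1 (2.68 times the highest other library) and EPHB3 (4.32 times) were above, and so were 3 members that were not tested. ROR2, a WNT5A receptor, stood at 6.98 CPM, against 0, 0.189 and 0 CPM in sgCEBPD 1, 2 and 4 and at most 1.38 CPM in sgControl libraries. ERBB4, a neuregulin receptor, stood at 5.31 CPM, against at most 1.30 CPM in sgCEBPD 1, 2 and 4 and at most 0.826 CPM in sgControl libraries. TIE1, a receptor of endothelial cells, stood at 2.46 CPM, against at most 0.374 CPM in sgCEBPD 1, 2 and 4 and at most 0.0918 CPM in sgControl libraries. These were 71, 54 and 25 counts. The endothelial marker VWF stood at 0.688 CPM in sgCEBPD 3, its highest library, against 0.0918 to 0.350 CPM in the others, while CDH5 and EMCN had no row.

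Below the other libraries in sgCEBPD 3 were KIT, AATK and FLT4. FLT4, the VEGFR3 receptor of lymphatic vessels, stood at 6.09 CPM in sgCEBPD 3, against 16.5, 18.2 and 16.4 CPM in sgCEBPD 1, 2 and 4 and 16.3, 16.5, 18.1 and 16.5 CPM in sgControl 1 to 4, which made it one of the most even members elsewhere (log2 fold change 0.015, SE 0.090, without sgCEBPD 3). Among the 24 tested members 2 (8.33%) were at least 2-fold above and 3 (12.5%) at least 2-fold below, beside 3.97% and 3.65% of all genes tested. sgCEBPD 3 was the highest of the 8 libraries in 8 tested members (33.3%, beside 34.8% of all genes) and the lowest in 7 (29.2%, beside 34.9%), shares close to the background. With 1 such library there is no replicate of its values, and the part of its marker genes given above was not tested.

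**Figure D5:**
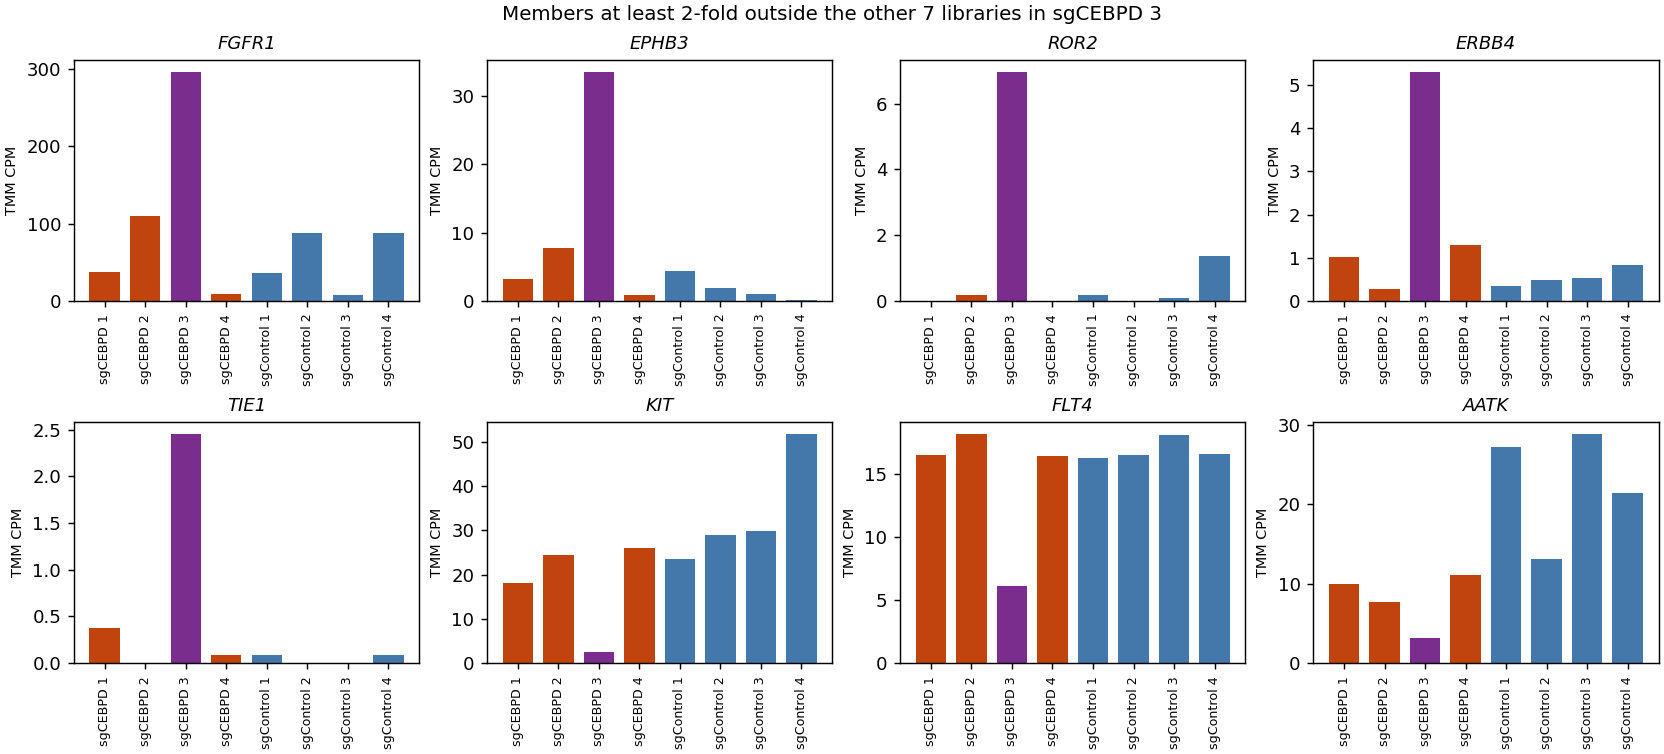
TMM-normalised CPM in each library of the 8 members at least 2-fold outside the other 7 libraries in sgCEBPD 3 (purple). FGFR1, EPHB3, ROR2, ERBB4 and TIE1 are higher there and KIT, FLT4 and AATK lower, and FGFR1 also spans 7.99 to 88.0 CPM among the blue control bars.

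The ligands of these receptors were listed as 71 genes, of which 44 had a row and 18 were tested. No ligand passed edgeR's test in either comparison, with 3 and 4 at an unadjusted p under 0.05, beside 11.4% and 15.5% of all genes tested. DESeq2 called 1 in each and limma-voom none, and the list's median log2 fold change was 0.013 with 8 libraries and -0.12 with 7. The ligands below were picked after their values were seen, and others, such as VEGFA (70.7 to 133 CPM), were left out. With 8 libraries 2 of 18 (11.1%) had no overlap, both lower, beside 9.59% of all genes tested. These were HGF and EFNB1, the latter at 11.99 to 21.99 CPM in sgCEBPD against 23.26 to 31.83 CPM in sgControl libraries. Without sgCEBPD 3 ALKAL1 joined, making 3 (16.7%), all lower, beside 14.4%. ALKAL1 stood at 4.75 to 6.64 CPM in sgCEBPD 1, 2 and 4, against 6.81 to 9.18 CPM in sgControl libraries, and at 8.55 CPM in sgCEBPD 3, within the control range. HGF, the ligand of MET, stood at 209, 96.1, 129 and 161 CPM in sgCEBPD 1 to 4, against 317, 222, 303 and 363 CPM in sgControl 1 to 4, with no overlap between the groups and an adjusted p of 0.236 in edgeR (log2 fold change -1.02, SE 0.24). GAS6, which binds the TAM receptors, had means of 132 ± 24.0 CPM in sgCEBPD and 154 ± 10.03 CPM in sgControl (SD, n = 4 each). GAS6 stood at 98.8 CPM in sgCEBPD 3, its lowest library, and averaged 143 CPM over sgCEBPD 1, 2 and 4. CSF1 had means of 2.97 and 2.70 CPM, with 2.46 CPM in sgCEBPD 3. FLT3LG and IL34 stayed under 0.5 CPM in every library, beside the high level of their receptors. KITLG, the ligand of KIT, stood at 11.2 CPM in sgControl 4 and at 0.908 to 2.80 CPM in the other 7 libraries, and sgControl 4 was also the library with the highest KIT level.

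Of 45 adaptors and proximal effectors, 38 were tested and none passed edgeR's test with 8 libraries (8 at an unadjusted p under 0.05, beside 11.4% of all genes, with 3 called by DESeq2 and 0 by limma-voom). Without sgCEBPD 3, 1 was higher and 2 were lower (7.89%), beside 2.01% of all genes tested, with 5 called by DESeq2 and 3 by limma-voom. PIK3CB, the beta catalytic subunit of PI3K, fell to 63.6, 64.0 and 59.3 CPM in sgCEBPD 1, 2 and 4, against 105, 93.5, 91.0 and 96.7 CPM in sgControl 1 to 4, with 72.0 CPM in sgCEBPD 3 (log2 fold change -0.63, SE 0.063, edgeR adjusted p = 0.00149). GRB10, an adaptor that restrains the insulin receptor, fell with a log2 fold change of -0.52 (adjusted p = 0.0110), and PIK3AP1, a PI3K adaptor of leukocytes, rose with one of 0.26 (adjusted p = 0.0346, both in edgeR). In sgCEBPD 3, GRB10 stood at 118.4 CPM, within the control range of 117.6 to 134.5 CPM. PIK3AP1 stood at 186 CPM there, above every control. The list's median log2 fold change without sgCEBPD 3 was 0.0067, beside 0.0011 for all genes tested. The groups did not overlap in 6 of 38 (15.8%) with 8 libraries and in 10 (26.3%) without sgCEBPD 3, beside 9.59% and 14.4% of all genes tested.

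Of 30 negative regulators, 26 were tested, and none passed edgeR's test with 8 libraries (10 at an unadjusted p under 0.05, beside 11.4% of all genes, and 0 called by DESeq2 or limma-voom). Without sgCEBPD 3, 1 was higher and 2 were lower (11.5%), beside 2.01% of all genes tested, with 5 called by DESeq2 and 2 by limma-voom. PTPRC, the CD45 phosphatase of leukocytes, rose to a mean of 455 ± 46.1 CPM in sgCEBPD (SD, n = 3), against 334 ± 26.3 CPM in sgControl (SD, n = 4), with 943 CPM in sgCEBPD 3 (log2 fold change 0.44, adjusted p = 0.0305 in edgeR). SPRY1, a Sprouty inhibitor of RAS signalling, fell to 11.1, 8.70 and 11.7 CPM in sgCEBPD 1, 2 and 4, against 16.4, 15.3, 16.1 and 16.1 CPM in sgControl 1 to 4, with 3.44 CPM in sgCEBPD 3 (log2 fold change -0.60, adjusted p = 0.0364 in edgeR). DOK3, an adaptor that dampens signalling in myeloid cells, fell with a log2 fold change of -0.32 (adjusted p = 0.0483 in edgeR), while sgCEBPD 3 at 345 CPM was above every control. Of 26 co-receptors and sheddases, 13 and 14 were tested and none passed edgeR's test (3 and 4 at an unadjusted p under 0.05, beside 11.4% and 15.5% of all genes, 1 and 2 called by DESeq2, 0 by limma-voom). The median log2 fold change with 8 and 7 libraries was 0.13 and 0.026 for the negative regulators and 0.15 and -0.039 for the co-receptors. With 8 and 7 libraries the groups did not overlap in 10 (38.5%) and 12 (46.2%) of the 26 negative regulators. For the co-receptors these were 1 (7.69%) and 2 (14.3%), beside 9.59% and 14.4% of all genes tested. The share of separated genes was thus higher in the negative regulators than in the receptors.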

How the data were processed

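Gene counts of 8 OCI-AML5 libraries were analysed. The authors deposited raw read counts per gene symbol. The tools named in the submitters' processing notes are HISAT2, FastQC and DESeq2, and the build is hg38; counting tool, strand setting and annotation are not given in the sources used here. Columns were matched to libraries by name. The whole table (116 rows repeat a symbol, kept apart) was tested in R 4.3.3 with edgeR 4.0.16: filterByExpr, TMM, robust quasi-likelihood fit, group as the only term, Benjamini-Hochberg adjustment over all genes tested, threshold 0.05, with 8 libraries and without sgCEBPD 3. CPM are TMM-normalised over 8 libraries, and the SE is the absolute log2 fold change over the square root of F. DESeq2 1.42.0, limma-voom 3.58.1, other scalings and filters, a replicate block and each library left out were alternatives. Exon lengths and gene positions came from GENCODE release 29 on GRCh38, matched by symbol, and promoters from RefSeq (51 of 57 matched). Functions were tested on simulated counts.

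Values in every library are given for members past the threshold, those averaging 10 CPM or more, and those at least 2-fold outside the other libraries in sgCEBPD 3; AXL, LMTK3, PTK7 and MET, and the ligands, were added after their values were seen. Members, lists and the comparison without sgCEBPD 3 were chosen with earlier results of these data known. Limits from counts cover counting error only.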

Additional observations from a re-analysis of the deposited data

Results flagged for a closer look

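In 6 of 48 groups of 4 values of tested members, 1 library was set off widely; chance flags about 1 in 20 groups, or 2.4 of these. FLT4 was low in sgCEBPD 3 at 6.09 CPM (the others 16.4 to 18.2 CPM), and in controls sgControl 3 lay above at 18.1 CPM (16.3 to 16.5 CPM), a small step. MERTK was high in sgCEBPD 3 at 9.43 CPM (0.473 to 1.78 CPM) and in sgControl 4 at 5.14 CPM (0.700 to 1.16 CPM). EPHB4 was high in sgControl 1 at 63.5 CPM (52.0 to 52.2 CPM). ROS1 was high in sgControl 4 at 12.1 CPM (4.72 to 5.68 CPM).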

How the results depend on the processing

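Members called with 8 libraries numbered 1, against 6 in DESeq2, 0 when guide numbers formed a replicate block and 0 to 3 with 1 library left out (3 without sgCEBPD 3). Members called without sgCEBPD 3 numbered 3, against 7 in DESeq2, 1 in limma-voom, 1 with no filter and 1 to 4 with a further library left out; the block gave 4. All genes called with 8 libraries numbered 11, against 292 in DESeq2, 20 with no filter, 1 with the block and 0 to 283 with 1 library left out; without sgCEBPD 3 they numbered 283, against 596 in DESeq2 and 66 to 312 with a further library left out. The causes were not tested. No called member changed direction in any setting, and 15 values of members not called changed sign, 6 with 8 libraries and 9 with 7, all with 1 library left out. Same-numbered libraries did not deviate together (correlations of -0.081 to 0.056), so the number is not taken as a pairing. At these totals, members under 1 CPM rest on some 10 counts or fewer, and their differences were not detectable unless large.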

Other observations

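Several of these genes neighbour each other, and neighbours held unlike levels. LTK and TYRO3 lie 43.8 kb apart on chromosome 15: LTK averaged 3.07 CPM in sgCEBPD and 13.5 CPM in sgControl, while TYRO3 averaged 103 and 123 CPM in these groups. EPHB2 and EPHA8 lie 107 kb apart on chromosome 1, and EPHA8 had at most 2 counts in any library. CSF1R and PDGFRB lie 0.465 kb apart on chromosome 5, CSF1R with 4219 to 5560 counts in each library and PDGFRB with at most 3. KIT and PDGFRA lie 360 kb apart on chromosome 4, and PDGFRA had at most 4 counts. EPHB6 and EPHA1 lie 519 kb apart on chromosome 7: EPHB6 was above every control in all sgCEBPD libraries, and EPHA1 was above every control in sgCEBPD 1, 2 and 3 and 8.38 CPM in sgCEBPD 4, within the control range.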
